A study of Mus musculus with 20 samples.

Results

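The small leucine-rich proteoglycans described here are 9 mouse genes taken by symbol and matched to the Ensembl identifiers of the count tables: lumican (Lum), decorin (Dcn), biglycan (Bgn), osteoglycin (Ogn), fibromodulin (Fmod), Prelp, osteomodulin (Omd), asporin (Aspn) and podocan (Podn). All 9 were found among the 46078 genes counted, and all 9 passed the filter on low counts in each of the 5 comparisons. Bulk mRNA was sequenced from wild-type C57BL/6J male mice aged 18 months that had received a DH stroke, a distal occlusion of the middle cerebral artery combined with hypoxia. From 1 week after the stroke, mice were injected subcutaneously 3 times per week for 6 weeks with PBS vehicle or with hydroxypropyl-β-cyclodextrin (HPBCD, a sugar ring that takes up cholesterol) at 4 g/kg, and tissue was taken at 7 weeks. The peri-infarct region, dissected after the infarct itself had been removed, and the corresponding contralateral tissue gave 4 groups of 5 libraries each, so that every mouse in the study had a stroke and the contralateral hemisphere is not tissue of an uninjured mouse.

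Small leucine-rich proteoglycans are secreted matrix proteins with a curved core of leucine-rich repeats that lies along collagen fibrils and sets their spacing and diameter. Several also hold growth factors such as TGF-β in the matrix or, when released from it, bind innate immune receptors. In the healthy brain their mRNAs are known mainly from the fibroblasts of the meninges and of the larger vessels, and after injury from the fibroblasts of the fibrotic scar.

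The libraries held 14445021 to 22171627 counts on genes (median 19008532). HPBCD contralateral replicate 4 was the shallowest and stood apart, with 9.5% of its reads on no gene and 8.03% ambiguous, against at most 5.86% and 4.16% in the other libraries. Treatment names are those of the sample titles. They were checked with a list of genes for which a direction under HPBCD in peri-infarct tissue is stated in the study's text, a list chosen on these libraries and so no independent evidence: of 32 tested, 0 differed in the stated direction and 32 in the opposite one, 18 of them past the threshold. For this reason the libraries are called "labelled HPBCD" and "labelled vehicle", and each direction between treatments below holds only as far as those labels do. In tissue of mixed cells, fewer cells of a type and less RNA per cell cannot be told apart.

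Levels are given as CPM, counts scaled to the size of the library with TMM factors (trimmed mean of M values), and levels of different genes are compared only per kilobase of exon. In the peri-infarct tissue labelled HPBCD, Dcn stood first at 34.4 ± 16.8 CPM per kb (mean ± SD, n = 5), followed by Ogn at 19.8 ± 8.56, Fmod at 15.3 ± 6.65, Prelp at 13.7 ± 2.55, Lum at 9.07 ± 3.54 and Bgn at 8.71 ± 3.02 CPM per kb. The ranges of these neighbours overlapped at each step. Omd at 2.9 ± 1.11, Podn at 1.31 ± 0.456 and Aspn at 0.628 ± 0.262 CPM per kb came last, and the ranges of Bgn and Omd, and of Omd and Podn, did not overlap. In the peri-infarct tissue labelled vehicle, Prelp (6.06 ± 1.39), Fmod (6.05 ± 3.41), Dcn (5.58 ± 5.4), Ogn (4.68 ± 3.01) and Bgn (3.58 ± 1.45 CPM per kb) lay close together. In both contralateral groups Fmod, the fibromodulin known from tendon, had the highest mean per kilobase, at 6.59 ± 6.53 in vehicle and 5.89 ± 3.44 CPM per kb in HPBCD. In contralateral vehicle tissue this mean rested on replicates 2 and 4, at 16.3 and 10.3 CPM per kb, and Prelp was above Fmod in the other 3 libraries. Ogn was below Fmod in all 5 libraries of each contralateral group and above Prelp in 2 of 5 vehicle and 4 of 5 HPBCD libraries. No neighbouring pair had ranges that were apart in the vehicle groups or the HPBCD contralateral group. The length matters most for Bgn: divided by its longest annotated transcript of 2666 bases in place of the 6099 bases of all its exons, its level in the peri-infarct tissue labelled HPBCD was 19.9 CPM per kb. With every gene divided by its longest transcript, Bgn had the highest mean of the 9 in peri-infarct vehicle tissue, at 8.19 CPM per kb before Dcn at 6.95, Fmod at 6.41 and Prelp at 6.06, so that the order given above for that group depends on the length used. On the same scale Bgn came after Dcn (42.8) in peri-infarct HPBCD tissue, and after Fmod in the contralateral groups, at 4.45 in vehicle and 3.53 CPM per kb in HPBCD.

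**Figure D1:**
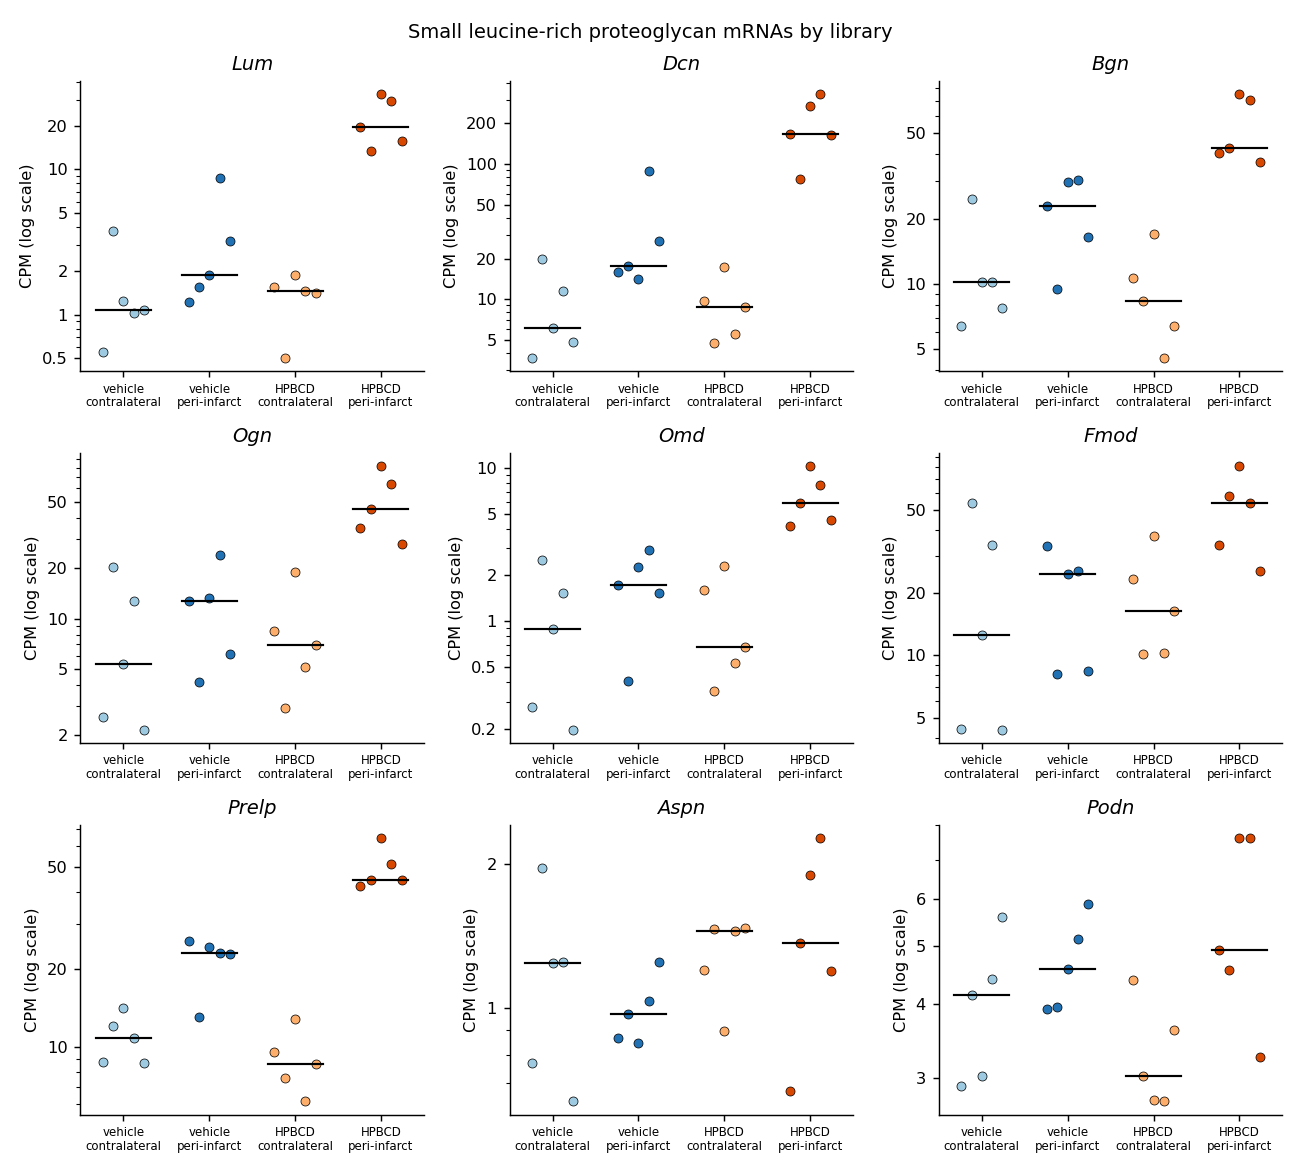
CPM (log scale, each panel with its own range) of the 9 genes in the 20 libraries, with replicates 1 to 5 from left to right within a group and the group median as a bar. In Lum, Bgn, Ogn, Prelp and Omd all 5 peri-infarct libraries labelled HPBCD lie above all 5 labelled vehicle, and in Dcn, Fmod, Aspn and Podn the groups overlap.

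In peri-infarct tissue, the comparison of the treatments asks how 6 weeks of HPBCD related to the matrix beside the infarct. The mRNAs of 7 of the 9 proteoglycans were higher in the libraries labelled HPBCD than in those labelled vehicle, by 2.25-fold for Prelp to 6.64-fold for Lum, while Aspn and Podn did not pass the test and none was lower. Over all 16224 genes tested, 12.4% were called higher in this comparison. The groups did not overlap for 5 members, Lum, Bgn, Ogn, Prelp and Omd, a separation that 7.46% of all genes showed in this direction. The median log2 difference of the 9 members was 1.33, and that of all genes was 0.014.

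Lum encodes lumican, the keratan sulphate proteoglycan that spaces collagen fibrils in the cornea. Its CPM in the peri-infarct libraries labelled vehicle was 1.22, 1.54, 1.86, 8.67 and 3.21 in replicates 1 to 5. In those labelled HPBCD it was 19.5, 13.3, 32.9, 29.7 and 15.6. The lowest HPBCD library was thus above the highest vehicle library, which was replicate 4. The fitted log2 difference was 2.73 (SE 0.495), with an adjusted p of 0.0128 in edgeR's quasi-likelihood test. Without vehicle replicate 4 it was 3.48.

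Dcn encodes decorin, which binds type I collagen and TGF-β and lies next to Lum on chromosome 10. Vehicle peri-infarct libraries held 16, 17.7, 14.1, 88.3 and 26.9 CPM of Dcn. Libraries labelled HPBCD held 166, 77.1, 267, 329 and 165 CPM. Here the groups overlapped by 1 library on each side, since vehicle replicate 4 lay above HPBCD replicate 2. The fitted log2 difference was 2.61 (SE 0.552, adjusted p = 0.0153), and without vehicle replicate 4 it was 3.41.

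Prelp encodes a heparin-binding member with an arginine- and proline-rich end that is known to link collagen to heparan sulphate of basement membranes. Its peri-infarct values spread least among the called members, with 25.8, 13.1, 24.5, 23.1 and 22.9 CPM in the vehicle libraries and 42.2, 44.3, 64.7, 51.4 and 44.5 CPM in those labelled HPBCD. The groups were apart, and vehicle replicate 2 was low against the other 4. The fitted log2 difference was 1.17 (SE 0.178, adjusted p = 0.0128), the smallest of the 7 called.

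Bgn encodes biglycan, a close relative of decorin known as a ligand of Toll-like receptors when soluble. It measured 9.54 to 30.4 CPM (median 23.1) in the vehicle and 36.7 to 75.3 CPM (median 42.6) in the HPBCD peri-infarct libraries, with a log2 difference of 1.27 (SE 0.311, adjusted p = 0.0212). The groups were apart, yet leaving out HPBCD replicate 3 raised the adjusted p to 0.0593. Fmod, which guides collagen cross-linking, overlapped between the groups, at 8.1 to 33.5 CPM (median 24.7) against 25.3 to 81.2 CPM (median 54.2). Its log2 difference of 1.33 (SE 0.426) had an adjusted p of 0.0463, the closest to the threshold of 0.05. That call was lost in 6 of 10 fits that left out a library (adjusted p up to 0.115) and, in limma voom and in a fit of all 4 groups, at adjusted p of 0.059 and 0.0904.

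Aspn, Omd and Ogn lie in this order on the plus strand of chromosome 13, with gaps of 14.9 and 15.2 kb and no other protein-coding gene between them, inside Cenpp on the opposite strand. Ogn (osteoglycin, also called mimecan) and Omd (osteomodulin, a keratan sulphate proteoglycan of bone) differed between the treatments in peri-infarct tissue, and Aspn (asporin, which binds collagen and TGF-β) was not called. Their upstream sequences are shown because these neighbours gave different values in the same libraries. They are the 250 bases before the start sites in RefSeq, build GRCm38.p6, plus strand, 5′ to 3′, at chr13:49544193-49544442 for Aspn, chr13:49582212-49582461 for Omd and chr13:49607765-49608014 for Ogn. Capitals mark matches, on either strand, to TATAAA, the letters of a TATA box, and to CATTCC, those of a TEAD site, and also mark the run TTGAATTCCAC.
Aspn: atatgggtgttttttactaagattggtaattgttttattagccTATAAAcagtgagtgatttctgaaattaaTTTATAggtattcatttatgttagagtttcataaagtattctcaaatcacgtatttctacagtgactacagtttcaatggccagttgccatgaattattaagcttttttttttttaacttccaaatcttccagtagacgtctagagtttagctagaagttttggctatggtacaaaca
Omd: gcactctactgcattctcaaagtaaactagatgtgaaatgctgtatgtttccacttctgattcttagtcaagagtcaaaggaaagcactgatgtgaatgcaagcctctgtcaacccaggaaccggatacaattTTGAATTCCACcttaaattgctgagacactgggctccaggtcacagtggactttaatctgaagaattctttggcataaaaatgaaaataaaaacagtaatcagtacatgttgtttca
Ogn: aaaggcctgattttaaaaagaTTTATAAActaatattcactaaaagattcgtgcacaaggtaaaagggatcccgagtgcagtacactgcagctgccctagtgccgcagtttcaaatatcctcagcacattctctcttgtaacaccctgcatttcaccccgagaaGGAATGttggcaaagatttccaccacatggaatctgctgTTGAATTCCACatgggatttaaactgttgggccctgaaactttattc
The longest run of letters that the Omd and Ogn windows share is TTGAATTCCAC, of 11 bases, starting 117 bases before the Omd and 47 bases before the Ogn start site, and 4 of 32851 RefSeq promoter windows of 250 bases (0.0122%) hold it on either strand. This run was found by searching the Omd and Ogn windows, so both hold it by selection and no conclusion is drawn from its frequency. Aspn shares at most 9 bases with either window. TATAAA had 2 matches in the Aspn window and 2 overlapping matches in the Ogn window, the nearest of the 4 starting 178 bases before the start site, and 12.4% of all windows hold it. CATTCC had 1 match, in Ogn on the minus strand, and 12.6% of all windows hold it. TGANTCA (AP-1 site) matched in none of the 7 members with a window and 6.75% of all windows hold it. GGGCGG (GC box), held by 32.7% of windows, matched in Bgn 3 times and at the upstream start site of Podn 2 times. These matches are letters only, and no binding was measured.

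Ogn rose from 12.7, 4.15, 13.3, 23.8 and 6.13 CPM in the vehicle peri-infarct libraries to 34.7, 45.5, 81.7, 63.8 and 27.9 CPM in those labelled HPBCD. The groups were apart, and the log2 difference was 2.07 (SE 0.438, adjusted p = 0.0153). Omd, at lower levels, went from 1.73, 0.41, 2.26, 2.92 and 1.53 to 4.21, 5.93, 10.3, 7.67 and 4.59 CPM, with no overlap and a log2 difference of 1.87 (SE 0.403, adjusted p = 0.0161). The same vehicle replicate 2 was lowest and the same HPBCD replicate 3 highest for both genes. Aspn had low counts in every library, 13 to 41. Its peri-infarct CPM was 0.847 to 1.25 (median 0.974) in vehicle and 0.673 to 2.26 (median 1.37) in HPBCD, and its log2 difference of 0.55 (SE 0.305) had an adjusted p of 0.201. Podn, which encodes the collagen-binding podocan, measured 3.93 to 5.89 CPM (median 4.58) against 3.25 to 7.62 CPM (median 4.92), with a log2 difference of 0.24 (SE 0.235, adjusted p = 0.464).

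**Figure D2:**
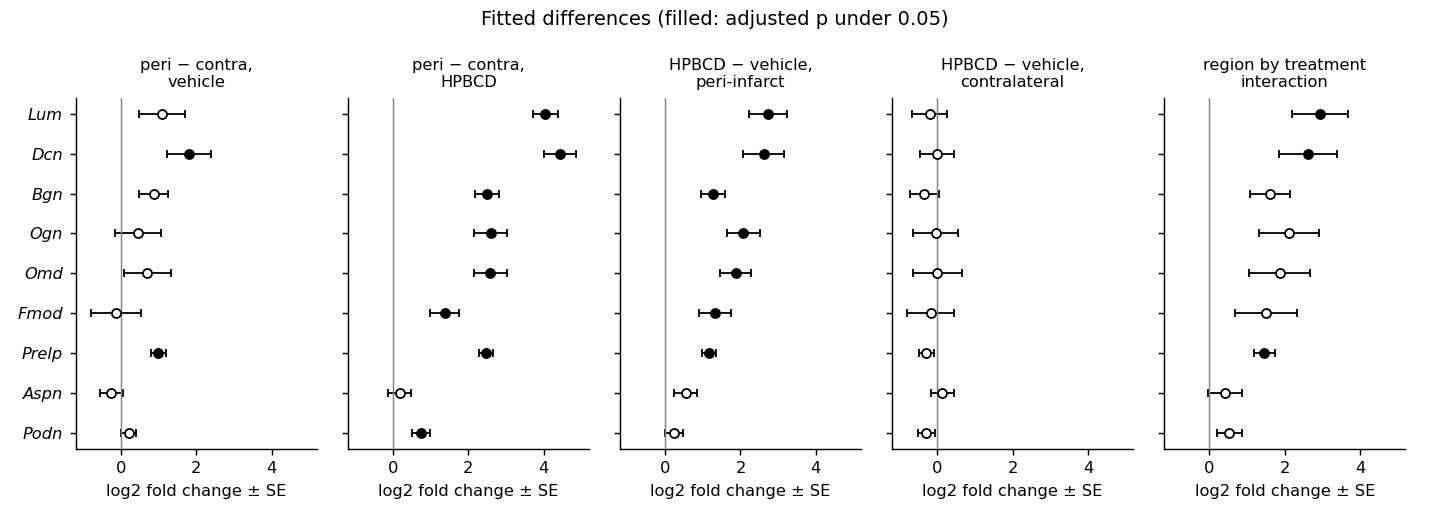
Fitted log2 fold changes with their SE for the 9 genes in the 5 comparisons, filled where the adjusted p was under 0.05. In peri-infarct tissue 7 genes are filled for HPBCD against vehicle, and in contralateral tissue none is.

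The comparison of peri-infarct with contralateral tissue asks which of these mRNAs were higher beside the infarct 7 weeks after stroke. In mice labelled HPBCD, 8 of the 9 were higher in peri-infarct tissue, and only Aspn did not pass the test, at a log2 difference of 0.18 (SE 0.308, adjusted p = 0.649). In this comparison 30.3% of all genes tested were called higher. The groups did not overlap for 6 of the 9 members (Lum, Dcn, Bgn, Ogn, Prelp and Omd), against 24.3% of all genes. Dcn and Lum differed most. Dcn measured 4.74 to 17.4 CPM (median 8.79) in contralateral and 77.1 to 329 CPM (median 166) in peri-infarct libraries, a log2 difference of 4.43 (SE 0.429, adjusted p = 3.75e-06). Lum measured 0.504 to 1.86 CPM (median 1.45) and 13.3 to 32.9 CPM (median 19.5), a log2 difference of 4.05 (SE 0.331, adjusted p = 1.30e-06).

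Bgn, Ogn, Prelp and Omd differed by 2.47 to 2.59 on the log2 scale, with adjusted p of at most 0.000261. Fmod (1.38, SE 0.383, adjusted p = 0.00849) and Podn (0.75, SE 0.243, adjusted p = 0.0197) differed least of those called, and both overlapped between the regions. The call of Fmod was lost when all 4 groups were fitted together (adjusted p = 0.0523), and that of Podn without HPBCD peri-infarct replicate 3 (0.0651) or 4 (0.0569). The median of the 9 members was 2.49, against 0.032 for all genes.

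In mice labelled vehicle 2 of the 9 members were called higher in peri-infarct tissue, where 10.5% of all genes were. Prelp measured 8.71 to 14.2 CPM (median 10.8) in contralateral and 13.1 to 25.8 CPM (median 23.1) in peri-infarct tissue, a log2 difference of 0.996 (SE 0.191, adjusted p = 0.00583). This call held in all 10 fits that left out a library. Dcn measured 3.68, 19.9, 6.16, 11.5 and 4.82 CPM in the contralateral libraries, against the 14.1 to 88.3 CPM given for peri-infarct tissue. Its log2 difference of 1.8 (SE 0.588, adjusted p = 0.0492) sat at the threshold, and 6 of 10 fits without a library lost the call. Over these fits the log2 difference ran from 1.006 to 2.32, the lowest without peri-infarct replicate 4 (adjusted p = 0.145). The groups overlapped for all 9 members, while 6.72% of all genes were higher without overlap.

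The members not called in the vehicle mice include Lum at a log2 difference of 1.09 (SE 0.606), Bgn at 0.87 (SE 0.386), Omd at 0.7 (SE 0.622) and Ogn at 0.46 (SE 0.615), with adjusted p of 0.227, 0.134, 0.455 and 0.633. Fmod was at -0.13 (SE 0.668), Aspn at -0.25 (SE 0.304) and Podn at 0.21 (SE 0.202). Contralateral replicate 2 was the highest contralateral vehicle library for Lum, Dcn, Bgn, Ogn, Fmod, Omd and Aspn, with 53.7 CPM of Fmod where replicates 1 and 5 had 4.4 and 4.38. Without it Bgn passed the test (log2 difference 1.34, adjusted p = 0.021). Without peri-infarct replicate 4, in contrast, the log2 differences fell to 0.34 for Lum, 0.06 for Ogn and 0.45 for Omd, and without contralateral replicate 2 they were 1.76, 1.08 and 1.3. The latter library had the highest sum of fibroblast and meningeal markers among the contralateral libraries, 518 CPM, where the next vehicle library had 313. The part of that tissue in these values was not tested.

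In contralateral tissue none of the 9 members was called between the treatments by edgeR, DESeq2 or limma voom, and none had an unadjusted p under 0.05 in edgeR. The log2 differences ran from -0.34 for Bgn (SE 0.385) to 0.14 for Aspn (SE 0.305), with a median of -0.17 and adjusted p from 0.733 upward in edgeR, where limma voom gave 0.326 for Podn and 0.401 for Prelp. The SEs of Ogn, Fmod and Omd were 0.598 to 0.647, so these data do not show that their levels were alike. Across all genes the share called in either direction was 0%, with 1224 of 15469 at an unadjusted p under 0.05 and 51 called by DESeq2. Contralateral levels spread widely between mice of 1 group, from 2.16 to 20.4 CPM for Ogn and from 4.38 to 53.7 CPM for Fmod in vehicle, and from 2.92 to 19 CPM and 10.1 to 37.4 CPM in HPBCD.

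Peri-infarct and contralateral libraries of the same number carry the same animal identifier, and on that basis, which the sample labels do not state, the difference between the regions was read within a mouse. In mice labelled HPBCD the peri-infarct library was above the contralateral library of the same mouse in 5 of 5 mice for Lum, Dcn, Bgn, Ogn, Fmod, Prelp and Omd. The ratio for Lum was 12.6, 26.3, 17.7, 20.5 and 11.1, and that for Dcn was 17, 16.3, 15.4, 59.2 and 18.7. In mice labelled vehicle the ratio for Lum was 2.23, 0.409, 1.5, 8.39 and 2.96, and that for Dcn was 4.35, 0.89, 2.28, 7.7 and 5.58. For Lum and Dcn the lowest HPBCD mouse was thus above the highest vehicle mouse. The same held for Bgn and Prelp, and so for 4 of the 9 members, a separation shown by 5.57% of all genes. In vehicle mouse 2, the 1 with the high contralateral library, the ratio was below 1 for all members except Prelp, at 1.09, and was 0.151 for Fmod.

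**Figure D3:**
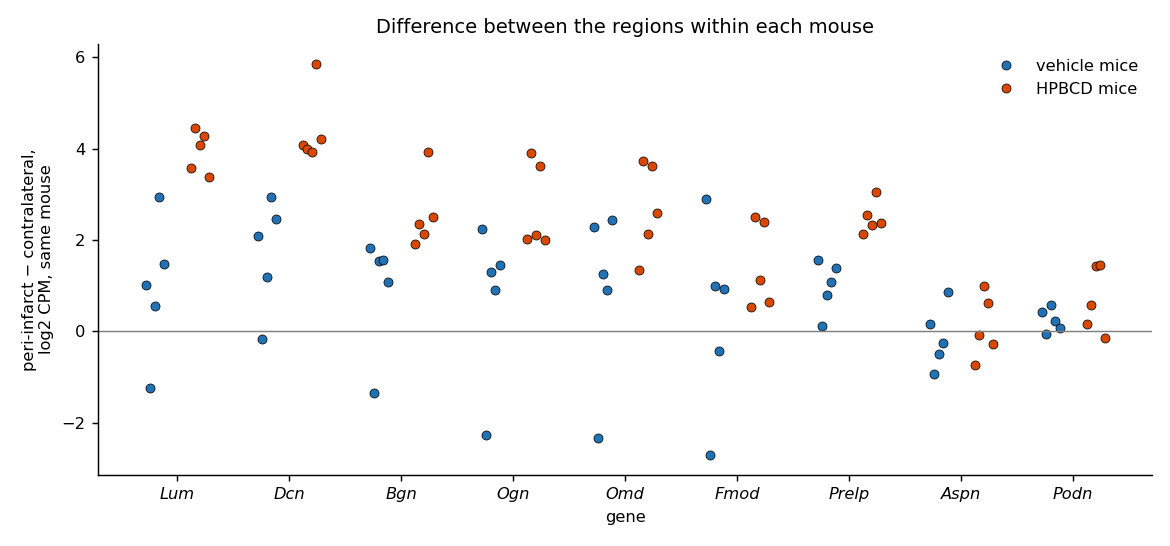
Peri-infarct minus contralateral log2 CPM in each of the 5 vehicle and 5 HPBCD mice, 1 point per mouse, with replicates 1 to 5 from left to right. Vehicle mouse 2 is the lowest point of every gene except Podn, where it is the lowest vehicle mouse, and the colours separate fully in Lum, Dcn, Bgn and Prelp.

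The test of whether the regional difference itself differed between the treatments (the interaction) called 3 of the 9 members, all higher in mice labelled HPBCD, where 5.03% of all genes were called higher. These were Lum at 2.93 (SE 0.744, adjusted p = 0.0247), Dcn at 2.62 (SE 0.766, adjusted p = 0.0389) and Prelp at 1.46 (SE 0.276, adjusted p = 0.0139) on the log2 scale. Prelp kept its call in all 20 fits without a library. Lum lost it without vehicle contralateral replicate 2 (adjusted p = 0.0588), and Dcn lost it in 11 of 20 fits (adjusted p up to 0.084). Without vehicle peri-infarct replicate 4 the interaction was 3.72 for Lum and 3.46 for Dcn, both called. Without vehicle contralateral replicate 2 it was 2.28 for Lum and 2.12 for Dcn, both not called. Bgn (1.61, SE 0.537, adjusted p = 0.0603), Ogn (2.11, SE 0.805, 0.0943), Omd (1.87, SE 0.805, 0.132) and Fmod (1.5, SE 0.829, 0.235) were fitted in the same direction and not called, as were Podn at 0.53 and Aspn at 0.41. DESeq2 did call Bgn, at 1.62 (adjusted p = 0.0447).

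The make-up of the proteoglycan mRNA, as the share of each gene in the sum of the 9 levels per kilobase, was described library by library. Dcn held 8.27% ± 0.809 (SD, n = 5) of the sum in contralateral vehicle, 9.08% ± 0.83 in contralateral HPBCD, 17.7% ± 9.36 in peri-infarct vehicle and 31.8% ± 9.05 in peri-infarct HPBCD libraries. In peri-infarct tissue labelled vehicle its share ran from 8.06% to 30.3%, so that its lowest value there lay within the 7.22% to 9.39% of the contralateral vehicle libraries. Lum held 3.4% and 3.44% in the contralateral groups, 4.28% ± 2.26 in peri-infarct vehicle and 8.53% ± 0.987 in peri-infarct HPBCD libraries. Fmod went the other way in the means, from 28.2% ± 12.9 and 33.2% ± 3.43 in the contralateral groups to 20.2% ± 8.44 and 14.6% ± 4.99 in the peri-infarct groups. Its vehicle ranges overlapped, at 15.1% to 42% in contralateral and 11.3% to 32.4% in peri-infarct libraries. Its HPBCD ranges, 29.4% to 36.7% and 10.25% to 22.7%, did not. Ogn held 14.7% to 18.5% in the 4 group means. Podn and Aspn in peri-infarct HPBCD libraries held 1.25% ± 0.161 and 0.597% ± 0.161. The summed CPM of the 9 was 70.2 ± 46.5 and 62.6 ± 30.4 in contralateral vehicle and HPBCD tissue, and 119 ± 55.4 and 440.1 ± 165 in peri-infarct tissue.

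**Figure D4:**
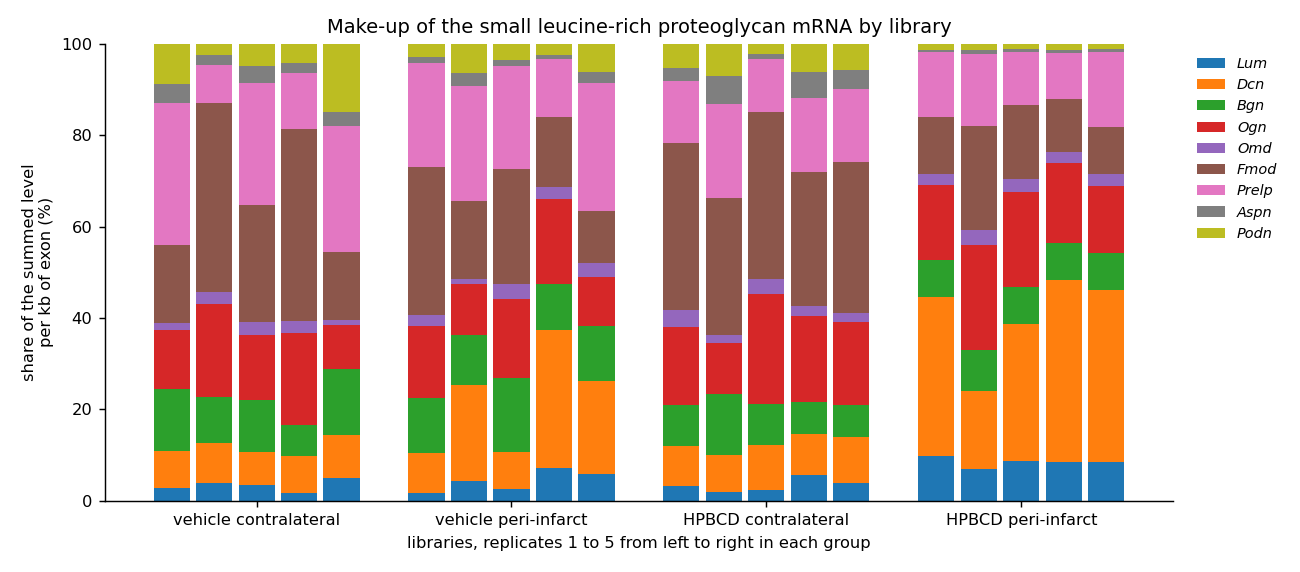
Share of each gene in the summed CPM per kilobase of exon of the 9 genes, 1 bar per library. Aspn and Podn are narrower in each of the 5 peri-infarct libraries labelled HPBCD, at no more than 0.751% and 1.41%, than in any other library, and the Dcn part there spans 17.1% to 39.7%.

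The patterns of the 9 genes over the 20 libraries were compared by the root mean square (RMS) difference of centred log2 CPM, with small values for similar patterns. Ogn and Omd, neighbours on chromosome 13, were each most like the other (0.3), as were the chromosome 10 neighbours Lum and Dcn (0.494), and Bgn and Prelp (0.393), which lie on different chromosomes. Prelp and Fmod, neighbours on chromosome 1 at 115.8 kb with no coding gene between them, were not most alike, since Fmod was most like Ogn (0.594). Aspn and Podn were nearest to each other at 0.535, but this exceeds the RMS size of either profile (0.445 and 0.422), and neither varied much over the libraries. Aspn differed from Dcn most, by 1.91, and from its neighbour Omd by 1.33. Outside the family, the 5 protein-coding genes nearest to the mean profile of the 9, of 13660 at 1 CPM or more, were Osr1 (0.226), Zic2 (0.236), Ddr2 (0.264), Slc6a20a (0.267) and Dab2 (0.28). Osr1 and Zic2 encode transcription factors, Ddr2 a receptor for fibrillar collagen, Slc6a20a a proline transporter and Dab2 an endocytic adaptor. The libraries differ by group, and likeness over them is a description.

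Other genes of the family and of its surroundings were counted by list. Of 10 further small leucine-rich proteoglycan genes 6 were tested in peri-infarct tissue, and 2 were higher in the libraries labelled HPBCD. These were Ecm2, which neighbours Aspn on chromosome 13, at a log2 difference of 1.64 (SE 0.326, adjusted p = 0.0136), and Tsku, a secreted inhibitor of BMP and Wnt signalling, at 1.16 (SE 0.241, adjusted p = 0.0148). Both were also called in the interaction, at 1.69 and 1.59. Epyc, a relative of Ogn, was higher in peri-infarct than in contralateral tissue of the HPBCD mice (1.46, SE 0.196, adjusted p = 4.62e-05) and was at 0.88 (adjusted p = 0.0534) between the treatments.

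Among 13 fibrillar and associated collagens, the partners of these proteoglycans, 11 were higher in peri-infarct tissue labelled HPBCD and 0 lower, with a median log2 difference of 1.34. Col3a1 (2.83, SE 0.625), Col1a2 (2.49, SE 0.492) and Col1a1 (2.32, SE 0.508), which encode chains of types I and III, differed most, with adjusted p of 0.0136 to 0.0169. Between the regions 11 of the 13 were higher in HPBCD mice and 2 in vehicle mice (Col5a2 and Col16a1), and 9 were called in the interaction.

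Of 25 genes that build the chondroitin, dermatan or keratan sulphate chains, 4 were higher and 3 lower in peri-infarct tissue labelled HPBCD, with a median of -0.011. Over all 16224 genes tested 2011 were higher and 1460 lower, so the list's counts lay near those of all genes. The called genes of largest change were Dse, an epimerase (1.54, SE 0.283, adjusted p = 0.0128), Chst14, a sulphotransferase (1.09, SE 0.246, adjusted p = 0.0174), and Chsy3, a chondroitin synthase, which was lower by 0.86 (adjusted p = 0.0354). Of 23 receptors and growth factors that bind these proteoglycans 9 were higher and 0 lower, among them Fn1, fibronectin (1.6, SE 0.33, adjusted p = 0.0146), and the growth factor Bmp4 (1.36, SE 0.4, adjusted p = 0.0359). In vehicle mice 10 of the 23 were higher in peri-infarct than in contralateral tissue, led by Tlr2, a receptor of soluble biglycan, at 3.12 (SE 0.393, adjusted p = 0.00146). Of 12 proteases tested between the treatments 5 were higher and 0 lower, among them the collagenase Mmp13 (3.77, SE 1.03, adjusted p = 0.0293) and Tll1, of the family that cleaves the biglycan and decorin propeptides (1.46, SE 0.268, adjusted p = 0.0128). Mmp13 did not pass the filter on low counts in either comparison of the regions or in contralateral tissue. Its interaction of 4.94 (SE 2.43, adjusted p = 0.183) was not called.

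Between the regions in HPBCD mice, 3 of 6 further proteoglycan genes, 19 of 23 receptors and growth factors and 10 of 11 proteases were higher in peri-infarct tissue, and 1 receptor or growth factor was lower. Of the 25 chain-building genes 12 were higher and 4 lower there, led by Dse at 2.55 (SE 0.218, adjusted p = 1.70e-06). Of all 16047 genes tested in that comparison 4859 (30.3%) were higher and 3905 lower. In vehicle mice 1 of 6 further proteoglycan genes and 3 of 9 proteases (Ctss, Mmp2 and Mmp14) were higher, and 7 of 25 chain-building genes were higher and 1 was lower, where 1662 of all 15801 genes were higher and 1533 lower. Mmp3 and Mmp12 did not pass the filter on low counts in vehicle mice, whereas both were tested and higher in HPBCD mice. The interaction called 2 of 6 further proteoglycan genes, 5 of 23 receptors and growth factors and 4 of 12 proteases higher, and 1 chain-building gene higher and 1 lower. In contralateral tissue 0 of the 74 genes tested in these lists and the collagens were called between the treatments by edgeR, DESeq2 or limma voom, and 0 in edgeR, 0 in DESeq2 and 8 in limma voom had an unadjusted p under 0.05.

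Markers of cells that could carry these mRNAs moved with the groups. The summed CPM of 16 fibroblast and meningeal markers, none a member and none at 0 in any whole group, was 122 to 518 in contralateral vehicle, 150.1 to 433 in contralateral HPBCD, 194 to 566 in peri-infarct vehicle and 727 to 1692 in peri-infarct HPBCD libraries. Of 15 tested, 14 were higher in peri-infarct tissue labelled HPBCD, with a median log2 difference of 1.89 beside 1.33 for the proteoglycans, and 3 of the 16 are collagens counted above. The summed CPM of the 9 proteoglycans followed this sum across the libraries, and their ratio lay between 0.249 and 0.445 in the 20 libraries, while the sum of the 9 itself ran from 30.3 to 622 CPM. The median ratio was 0.279 and 0.255 in the contralateral vehicle and HPBCD groups, 0.307 in peri-infarct vehicle and 0.381 in peri-infarct HPBCD libraries. The ratio was thus not level between groups, and all 5 peri-infarct HPBCD libraries (0.356 to 0.445) lay above all 10 contralateral ones (at most 0.307). The peri-infarct vehicle libraries, at 0.303 to 0.43, overlapped with the peri-infarct HPBCD libraries.

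**Figure D5:**
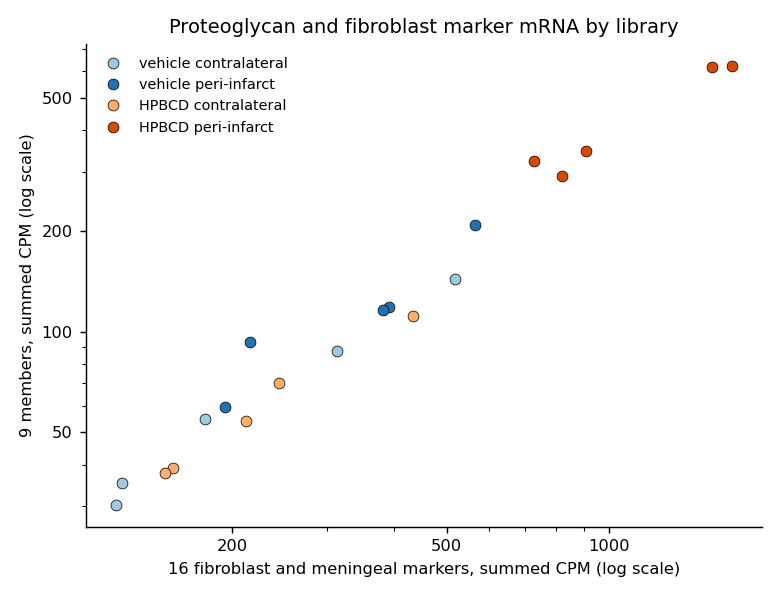
Summed CPM of the 9 proteoglycans against the summed CPM of 16 fibroblast and meningeal markers in the 20 libraries, both axes on a log scale. The libraries run along a single diagonal, with the 5 peri-infarct libraries labelled HPBCD at its upper end.

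Other lists were counted in the same comparison. Of 7 perivascular and border macrophage markers 5 were higher in peri-infarct tissue labelled HPBCD, of 10 pericyte and smooth muscle markers 4, of 7 endothelial markers 1 and of 7 astrocyte markers 2, and none of these lists had a marker lower. Of all 16224 genes tested 12.4% were higher and 1460 were lower, so the endothelial count lay near the share of all genes. Of 8 neuronal markers 6 were lower, of 6 cortical neuron markers 3 were lower, and of 7 striatal neuron markers 0 were called. Of 5 ependymal markers 3, and of 7 choroid plexus markers 4, were higher, and the choroid plexus sum was 6.46 to 80.6 CPM in vehicle and 28.4 to 696 CPM in HPBCD peri-infarct libraries. Ependymal sums of 18.4 to 47.7 and 70.5 to 139 CPM did not overlap. Striatal marker sums were 316 to 1853 and 628 to 1937 CPM in these groups, against 186 to 273 CPM in 4 of the 5 contralateral vehicle libraries and 3274 CPM in replicate 1. Between the regions in mice labelled HPBCD, 15 of 15 fibroblast and meningeal, 7 of 7 macrophage, 7 of 7 striatal, 5 of 5 ependymal, 4 of 7 astrocyte, 4 of 10 pericyte and 1 of 7 choroid plexus markers were higher and 8 of 8 neuronal and 5 of 6 cortical neuron markers were lower in peri-infarct tissue. Of all 16047 genes tested 30.3% were higher and 3905 were lower there. Of 7 endothelial markers 1 (Cdh5) was higher and 2 (Flt1 and Ly6c1) were lower there, and in vehicle mice none was called. In mice labelled vehicle, 1 of 15 fibroblast and meningeal, 1 of 7 macrophage, 2 of 4 ependymal, 3 of 7 astrocyte and 0 of 7 striatal markers were higher and 4 of 8 neuronal and 1 of 6 cortical neuron markers were lower. Of all 15801 genes tested there 10.5% were higher and 1533 were lower. Of the 7 choroid plexus markers 3 passed the filter on low counts there and 0 were called. Between the treatments in contralateral tissue 2 of them passed it. The part of tissue content in the proteoglycan differences was not tested.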

How the data were processed

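RNA from 20 brain tissue libraries was sequenced with a stranded mRNA kit. Per the labels, the authors processed reads with bcl2fastq 2.19, Trimmomatic 0.32, STAR 2.5.2b on GRCm38 and HTSeq; the annotation release and strand option are not given in the sources used here. The authors deposited raw counts per Ensembl gene. Lines of unassigned reads were left out of library sizes; reads on no gene made up 4.39% to 9.5%. Identifiers were matched to GENCODE M21, where 45229 of 46078 were found. Aspn shares 7 exonic bases with Cenpp and Prelp 350 with an antisense gene, whose reads cannot be separated without a strand-aware count.

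Counts were tested with edgeR 4.0.16 (quasi-likelihood test, TMM scaling, filterByExpr, R 4.3.3), fitting only the groups compared and the 4 groups for the interaction, with Benjamini-Hochberg adjustment over all genes at 0.05; log2 CPM used a prior count of 2. Alternatives were DESeq2 1.42.0, limma 3.58.1 voom with quality weights, other scalings and filters, fits with a mouse block, and leaving out each library. The fits were tested on simulated data. Same-numbered peri-infarct and contralateral libraries carry 1 animal identifier and were taken as from 1 mouse, which the sample labels do not state; the correlation of their deviations from the group means was -0.11 to 0.301, above 0.1 in 4 of 10 pairs. Between treatments the numbers pair nothing. The 5 libraries of a group come from separate mice. A count of 3 corresponds to 0.135 to 0.208 CPM, covering counting error only.

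The members and gene lists were chosen with earlier results of these data known. In every comparison all 9 members are described, the gene lists are counted with at most the 3 called genes of largest change named, and the 5 genes nearest to the mean profile are named. Epyc, not called between the treatments, was named there after its values were seen, and the upstream run shared by Omd and Ogn was found by searching both windows.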

Additional observations from a re-analysis of the deposited data

Results flagged for a closer look

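Lum in the contralateral tissue labelled HPBCD had 1 library far below the others, replicate 2 at 0.504 CPM, where the gap to the next library was 0.777 of the range of the group on the log2 scale. Prelp in the peri-infarct tissue labelled vehicle had 1 low library, replicate 2 at 13.1 CPM, with a gap of 0.825 of the range, and the other 4 lay at 22.9 to 25.8 CPM. These were 2 of 36 groups of 5 libraries examined at a limit of 0.71, and chance flags about 1 group in 20.

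The difference between the regions was larger in mice labelled HPBCD than in those labelled vehicle for Lum by 2.93, for Dcn by 2.62 and for Prelp by 1.46 on the log2 scale, by the interaction test in edgeR with adjusted p of 0.0247, 0.0389 and 0.0139. For each of them the 5 within-mouse differences of the HPBCD mice lay above the 5 of the vehicle mice.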

How the results depend on the processing

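Of 868 alternative fits of a member, 796 kept both direction and side of the threshold, 31 lost a call, 6 gained 1 and 35 changed sign. The number of members called higher in peri-infarct tissue of vehicle mice was 2, and 1 with upper quartile factors (Dcn, adjusted p = 0.0501). It was 1 to 3 when a library was left out, with 3 (Bgn added) without vehicle contralateral replicate 2. The interaction called 3, and 1 to 5 with a library left out: 1 without vehicle contralateral replicate 2 and 5 without HPBCD contralateral replicate 3. DESeq2 added Bgn to the members called in the interaction (adjusted p = 0.0447). The treatment comparison in peri-infarct tissue called 5 to 7 members and the HPBCD region comparison 7 to 8 under any alternative run. Requiring 10 counts in every library removed Omd from the genes tested. A block for the mouse left the counts at 2 and 8 members for the regions and 3 for the interaction and changed no call of a member. Sign changes concerned only members not called. Between the regions in vehicle mice Fmod (main value -0.13) was at 0.68 in limma voom and 0.32 with the block, and -0.405 to 0.538 without a library, while Aspn was at -0.39 to 0.037. In HPBCD mice Aspn was at -0.06 in limma voom and -0.033 to 0.36 without a library. Between the treatments in contralateral tissue limma voom gave 0.17 for Dcn, 0.38 for Ogn and 0.52 for Fmod, and Omd (main value 0.003) was at -0.007 with upper quartile factors and -0.002 with no filter. With libraries left out that comparison ranged over -0.42 to 0.45 for Lum, -0.36 to 0.49 for Dcn, -0.66 to 0.12 for Bgn, -0.57 to 0.57 for Ogn, -0.54 to 0.49 for Fmod, -0.42 to 0.59 for Omd and -0.022 to 0.41 for Aspn. Why these values moved was not tested.

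Counts over all genes moved more. In peri-infarct tissue 3471 genes were called between the treatments, 4841 by DESeq2, 6012 by limma voom, 2785 with no filter and 823 to 5339 without a library. The interaction called 1577 genes, 2514 by DESeq2, 4110 by limma voom, 1123 with no filter and 529 to 3121 without a library, and the regions in vehicle mice 3195, against 5065 by limma voom. Aspn and Omd at 4 to 41 counts in some libraries are limited by depth.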

Other observations

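Contralateral replicate 3 labelled HPBCD was the highest library of its group for Lum, Dcn, Bgn, Ogn, Fmod, Prelp and Omd and the lowest for Aspn, at 0.896 CPM. It held 17.4 CPM of Dcn and 37.4 CPM of Fmod, where the group medians were 8.79 and 16.3 CPM. Its choroid plexus markers summed to 646 CPM, against at most 7 CPM in the other 4 libraries of the group, and its fibroblast and meningeal markers summed to 433 CPM, against at most 244. The peri-infarct library of the same mouse was the highest of its group for Lum, Bgn, Ogn, Fmod, Prelp and Omd, and its choroid plexus sum was 696 CPM. Without the contralateral library 5 members in place of 3 were called in the interaction, the additional ones being Bgn (adjusted p = 0.0351) and Ogn (adjusted p = 0.0479).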
